A study of Mus musculus with 23 samples.

Results

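The glutathione peroxidases are enzymes that reduce peroxides with electrons from glutathione. Their 5 members examined here, Gpx1, Gpx3, Gpx4, Gpx7 and Gpx8, were found by gene symbol among 55401 genes of a count table of mouse bone marrow-derived macrophages, which are macrophages grown in culture from bone marrow cells. The cells came from mice labelled Selenow knock-out and from wild-type mice. Selenow encodes selenoprotein W, a small protein that contains selenocysteine. Cells of each genotype were left untreated (0 h) or were exposed for 4, 8 or 24 h to 100 ng/ml bacterial lipopolysaccharide (LPS), the ligand of Toll-like receptor 4. There were 3 RNA-seq libraries in 7 of the 8 groups and 2 in the labelled knock-out group at 24 h, numbered 1 to 23 in all.

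Whether libraries of a group stem from different mice or cultures is not given in the labels, and p-values therefore reflect library-to-library spread alone, which may be technical. Untreated cells are labelled at 0 h alone, so LPS and time in culture cannot be told apart. Each library held between 39001456 and 41819953 counted fragments. All 10 macrophage markers examined were detected in every library, with summed levels of 14881 to 28884 CPM (fragments scaled to library size by the TMM method) in the labelled knock-out libraries and 13774 to 26831 CPM in the wild-type libraries. The targeted gene went against its label in some libraries. Selenow stood at 39.4 to 135 CPM in 7 labelled knock-out libraries, and at 106, 191, 260 and 181 CPM in the labelled knock-out libraries 13 (0 h), 16 (4 h), 19 (8 h) and 22 (24 h). Wild-type libraries held 103 to 133 CPM at 0 h, 181 to 202 CPM at 4 h, 303 to 327 CPM at 8 h and 161 to 201 CPM at 24 h. The deleted part of the gene was not examined, and "labelled knock-out" is used throughout. Libraries 3, 6, 9, 12, 14, 17, 20 and 23, 1 in each group, deviated from their groups together and are called the second library set. The other 15 libraries are the first set. This division comes from the data; the labels give none.

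Glutathione peroxidases turn hydrogen peroxide or lipid hydroperoxides into water or alcohols, while glutathione is oxidised and is afterwards recycled by glutathione reductase at the cost of NADPH. Gpx1 is the abundant enzyme of cytosol and mitochondria and acts on soluble peroxides. Gpx4 acts on phospholipid hydroperoxides within membranes and is known for keeping cells from ferroptosis, a form of death driven by lipid peroxidation. Gpx3 is secreted and is the peroxidase of plasma. Gpx7 and Gpx8 reside in the endoplasmic reticulum, where they take part in oxidative protein folding. Macrophages make peroxides when activated, through the NADPH oxidase and through mitochondria.

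The members divide by the residue at the active site, shown here because it sets the selenium-dependent enzymes apart from the others. Gpx1, Gpx3 and Gpx4 have an in-frame TGA codon, which in these mRNAs is read as selenocysteine, while Gpx7 and Gpx8 have a cysteine codon at the matching place. The windows below run 5′ to 3′ in the sense of the mRNA, with the codon in capitals, 15 bases before it and 12 bases after it, from the GENCODE transcripts of GRCm38.
Gpx1: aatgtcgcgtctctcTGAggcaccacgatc
Gpx3: aacgtagccagctacTGAggtctgacagac
Gpx4: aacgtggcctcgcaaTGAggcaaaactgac
Gpx7: aacgtagctagcgaaTGTggcttcacagac
Gpx8: aacgtggctagtgacTGCcgcttcacagac
The Gpx1 window lies at chr9:108339436-108339465 on the plus strand, within a single exon, and its capitals are codon 47. The Gpx3 window lies at chr11:54907241-54907270 (plus strand, codon 73) and the Gpx4 window at chr10:80054722-80054751 (plus strand, codon 129 of the long form Gpx4-201). The Gpx7 window lies at chr4:108403418-108403447 (minus strand, codon 56) and the Gpx8 window at chr13:113045649-113045678 (minus strand, codon 79). Over the 30 bases, Gpx7 and Gpx8 were identical at 25, Gpx3 and Gpx7 at 23, and Gpx1 and Gpx3 at 15.

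Of the members, 4 passed the filter on low counts, which kept 18083 genes, and Gpx8 did not. Per exonic length, Gpx1 made up most of the family's mRNA in every group. In untreated cells Gpx1 averaged 369 ± 35.8 RPKM in the labelled knock-out and 406 ± 13.4 RPKM in wild-type (SD, n = 3 each; RPKM is CPM per kilobase of exon). Gpx4 averaged 69.5 ± 5.17 RPKM in the labelled knock-out and 65.9 ± 9.81 RPKM in wild-type, and Gpx3 averaged 49.0 ± 25 RPKM in the labelled knock-out and 46.7 ± 24.5 RPKM in wild-type. Gpx1 thus stood above 99.6% of the 18083 genes by RPKM in both genotypes. Gpx4 stood above 96.9% in the labelled knock-out and 96.5% in wild-type, and Gpx3 above 95.5% in the labelled knock-out and 95.1% in wild-type. Gpx7 was far lower, at 0.117 ± 0.0254 RPKM in the labelled knock-out and 0.175 ± 0.143 RPKM in wild-type, and Gpx8 lower still. Gpx2 and Gpx6 had no count in any library and Gpx5 had 1 in all, so nearly all of the family's measured mRNA was that of Gpx1, Gpx4 and Gpx3.

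**Figure D1:**
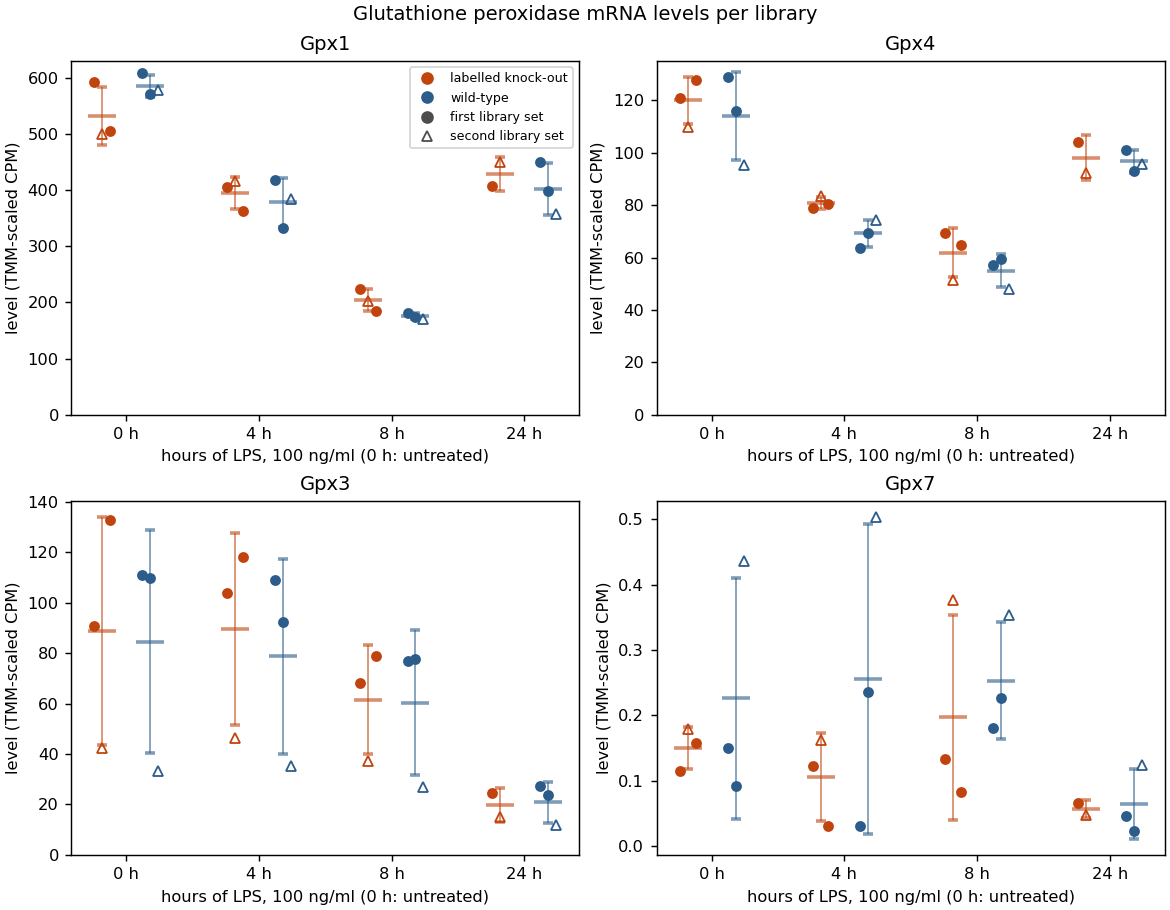
Level in TMM-scaled CPM (y axis) of Gpx1, Gpx4, Gpx3 and Gpx7 against hours of LPS (x axis), with labelled knock-out left of wild-type at each time. Points are libraries (open triangles, second set), and bars are the mean ± SD of a group. Gpx1 and Gpx4 are lowest at 8 h in both genotypes, Gpx3 is lowest at 24 h, and the second-set triangle is the lowest Gpx3 point of every group.

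Gpx1 fell with LPS in both genotypes, was lowest at 8 h and stood higher again at 24 h. The gene lies at chr9:108338903-108340343 on the plus strand. In labelled knock-out cells its level was 592, 500 and 505 CPM untreated, 406, 417 and 363 CPM at 4 h, 223, 203 and 185 CPM at 8 h, and 407 and 451 CPM at 24 h. In wild-type cells it was 608, 571 and 579 CPM untreated, 418, 332 and 384 CPM at 4 h, 181, 174 and 170 CPM at 8 h, and 450, 398 and 358 CPM at 24 h. In either genotype, no library at 4, 8 or 24 h reached the untreated libraries, and the 8 h libraries lay below all others of that genotype.

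Relative to untreated cells, Gpx1 at 4 h changed by −0.43 ± 0.11 on the log2 scale in the labelled knock-out (SE; adjusted p = 0.00271, edgeR's quasi-likelihood test with Benjamini-Hochberg adjustment, as in all tests below) and by −0.63 ± 0.11 in wild-type (adjusted p = 7.57e-05). At 8 h the change was −1.39 ± 0.11 in the labelled knock-out (adjusted p = 9.54e-09) and −1.74 ± 0.12 in wild-type (adjusted p = 6.63e-10). These are 38.3% of the untreated mean in the labelled knock-out and 29.9% in wild-type. At 24 h Gpx1 was still lower in wild-type, by −0.54 ± 0.11 (adjusted p = 0.000490). The labelled knock-out value at 24 h, −0.31 ± 0.13, missed the threshold (adjusted p = 0.0539). It passed with DESeq2 (adjusted p = 0.0203), limma-voom (adjusted p = 0.0469) and other scalings, and without library 5, 10, 12 or 14. It did not pass with the set term (adjusted p = 0.0514), and without libraries 13, 16, 19 and 22 it was −0.15 (adjusted p = 0.566). From 8 to 24 h Gpx1 rose by 1.07 ± 0.12 in the labelled knock-out (adjusted p = 5.94e-06) and by 1.20 ± 0.11 in wild-type (adjusted p = 3.41e-07). The order of the group means ran from 0 h through 24 h and 4 h down to 8 h in both genotypes. Groups at 24 h and 4 h overlapped, while the step down to the 8 h groups left a gap between 332 and 223 CPM. Summed markers of other cells also differed with LPS. B cell markers stood at 5.02 to 9.89 CPM at 8 h against 147 to 180 CPM untreated in the labelled knock-out, and at 3.55 to 7.56 CPM at 8 h against 108 to 146 CPM untreated in wild-type. Most of that sum was Ighm, at a mean of 5.85 CPM at 8 h against 165 CPM untreated in the labelled knock-out, and of 4.13 CPM at 8 h against 128 CPM untreated in wild-type. Of 5 B cell markers tested at 8 h, 1 was called higher and 2 lower in the labelled knock-out (median log2 fold change 0.41), and 2 higher and 2 lower in wild-type (median 0.59). Neutrophil markers summed to 769 to 978 CPM at 8 h against 198 to 207 CPM untreated in the labelled knock-out, and to 675 to 878 CPM at 8 h against 117 to 138 CPM untreated in wild-type. Lcn2 held most of the 8 h sum, with a mean of 821 CPM in the labelled knock-out and 731 CPM in wild-type. Of 11 neutrophil markers tested, 1 was called higher and 7 lower in the labelled knock-out (median −1.73), and 2 higher and 7 lower in wild-type (median −2.48). The part of such cells in the members' LPS changes was not tested.

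Gpx4 was likewise lowest at 8 h, where its change was smaller than that of Gpx1, and higher again at 24 h. The gene lies at chr10:80047166-80056439 on the plus strand. Its level in labelled knock-out cells was 121, 110 and 128 CPM untreated, 78.9, 83.4 and 80.3 CPM at 4 h, 69.5, 51.3 and 64.7 CPM at 8 h, and 104 and 92.2 CPM at 24 h. In wild-type cells it was 129, 116 and 95.5 CPM untreated, 63.8, 69.3 and 74.4 CPM at 4 h, 57.3, 59.6 and 47.9 CPM at 8 h, and 101, 93.0 and 95.7 CPM at 24 h. All libraries at 4 and 8 h lay below the untreated libraries of their genotype, and in wild-type the 24 h libraries overlapped the untreated ones.

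Gpx4 fell by 4 h, with a change of −0.57 ± 0.12 on the log2 scale in the labelled knock-out (adjusted p = 0.000566) and −0.71 ± 0.12 in wild-type (adjusted p = 5.42e-05). At 8 h the change from untreated was −0.95 ± 0.12 in the labelled knock-out (adjusted p = 2.64e-06) and −1.05 ± 0.12 in wild-type (adjusted p = 7.28e-07), which is 51.6% of the untreated mean in the labelled knock-out and 48.4% in wild-type. The further step from 4 to 8 h was −0.39 ± 0.12 in the labelled knock-out (adjusted p = 0.0148) and −0.33 ± 0.12 in wild-type (adjusted p = 0.0340). That step did not pass without the labelled knock-out library 20 (adjusted p = 0.0887), and in wild-type it did not pass without library 5, 6, 7 or 9, where adjusted p ran from 0.0522 to 0.146, or without libraries 13, 16, 19 and 22 (adjusted p = 0.0570). The first set alone gave −0.25 in the labelled knock-out (adjusted p = 0.0167) and −0.18 in wild-type (adjusted p = 0.0828). From 8 to 24 h Gpx4 rose by 0.67 ± 0.14 in the labelled knock-out (adjusted p = 0.00108) and by 0.82 ± 0.12 in wild-type (adjusted p = 4.4e-05). At 24 h it was not called against untreated cells, at −0.29 ± 0.14 in the labelled knock-out (adjusted p = 0.102) and −0.23 ± 0.12 in wild-type (adjusted p = 0.118). In wild-type it passed in the first library set alone (−0.31, adjusted p = 0.00396) and without library 3 (−0.34, adjusted p = 0.0270). With upper-quartile scaling it passed in both genotypes, at −0.40 in the labelled knock-out (adjusted p = 0.0330) and −0.33 in wild-type (adjusted p = 0.0351).

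A near copy bears on the Gpx4 counts. The pseudogene Gpx4-ps2, at chr10:45875305-45876086 on the plus strand, matched the transcript Gpx4-202 at 760 of 762 aligned bases. Reads with several alignments were left out of the counts by the authors, so the 2 loci share reads that cannot be assigned. Gpx4-ps2 held between 21.8% and 25.8% of the Gpx4 count in every library. At 8 h the count at Gpx4-ps2 changed by −0.91 ± 0.14 in the labelled knock-out (adjusted p = 1.46e-05). In wild-type it changed by −1.10 ± 0.14 (adjusted p = 1.48e-06). From which of the 2 loci these reads came was not tested. Summing both loci kept every Gpx4 call in the comparisons made. With so steady a share the sum could hardly change a call, and the reads left out stayed out of it. No exon of any member overlaps an exon of another gene in the table.

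**Figure D2:**
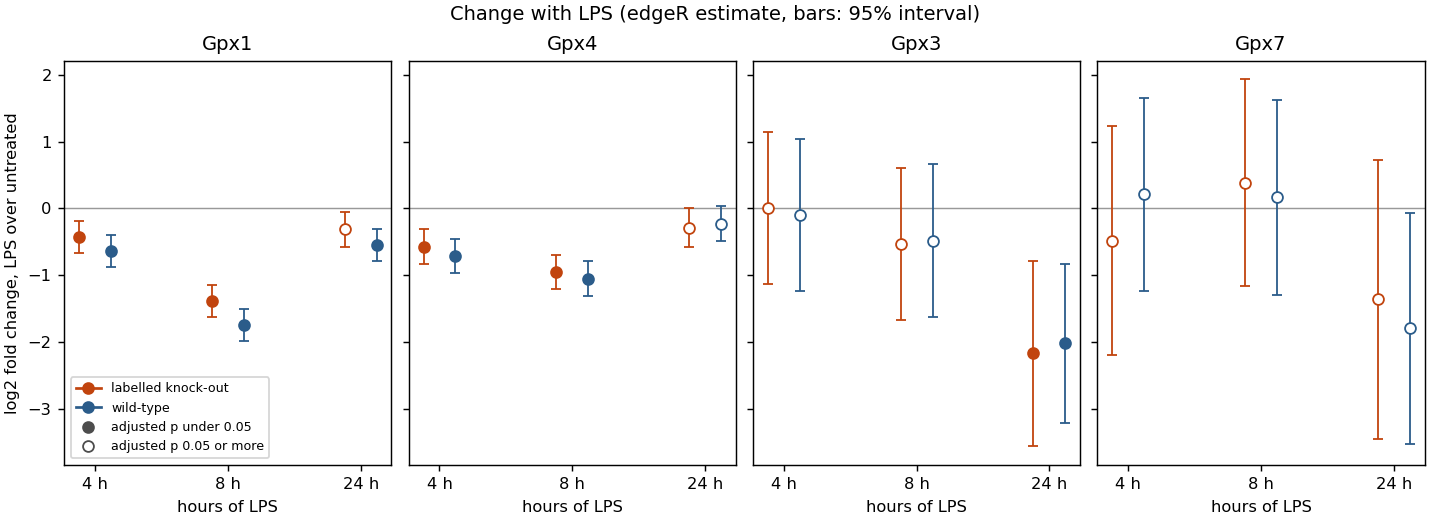
Log2 fold change of LPS-treated over untreated cells (y axis) by hours of LPS (x axis) for Gpx1, Gpx4, Gpx3 and Gpx7, labelled knock-out left of wild-type, with 95% intervals. Filled points have an adjusted p under 0.05: Gpx1 and Gpx4 at 4 and 8 h in both genotypes, Gpx1 at 24 h in wild-type, and Gpx3 at 24 h in both.

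Gpx3 took another course: it stood near its untreated level at 4 h and was lowest at 24 h. The gene lies at chr11:54902453-54910377 on the plus strand. In labelled knock-out cells its level was 90.7, 42.5 and 133 CPM untreated, 104, 46.4 and 118 CPM at 4 h, 68.3, 37.1 and 78.9 CPM at 8 h, and 24.4 and 15 CPM at 24 h. In wild-type cells it was 111, 110 and 33.3 CPM untreated, 109, 92.4 and 35.1 CPM at 4 h, 76.7, 77.5 and 27 CPM at 8 h, and 27.1, 23.7 and 11.7 CPM at 24 h. The 24 h libraries lay below all other libraries of their genotype, except that in wild-type the highest of them just passed the lowest 8 h library. In all 8 groups the library of the second set was the lowest, at 30.2% to 61.3% of the first set's mean (its only library in the labelled knock-out at 24 h).

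At 24 h Gpx3 was lower than in untreated cells by −2.17 ± 0.66 on the log2 scale in the labelled knock-out (adjusted p = 0.0128) and by −2.02 ± 0.57 in wild-type (adjusted p = 0.00550). The labelled knock-out call was lost without library 23 (−1.86, adjusted p = 0.130) and without libraries 13, 16, 19 and 22 (−2.55, adjusted p = 0.0814). With a term for the library set, the change was −1.85 in the labelled knock-out (adjusted p = 7.37e-07) and −1.93 in wild-type (adjusted p = 3.47e-08). Within the first set it was −2.09 in wild-type (adjusted p = 5.18e-09). It was −2.18 in the labelled knock-out, where the first set holds a single 24 h library. The adjusted p of 1.64e-07 there takes its spread from the other groups and assumes that this library varies like them. The second set has 1 library a group and allows no test. There, the 24 h library stood at 35.2% of the untreated one in both genotypes.

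At 8 h Gpx3 was not called against untreated cells, at −0.53 ± 0.55 in the labelled knock-out (adjusted p = 0.414) and −0.49 ± 0.55 in wild-type (adjusted p = 0.447). With the set term the 8 h change was −0.46 in both genotypes and passed (adjusted p = 0.0220 in the labelled knock-out and 0.0225 in wild-type), and it passed within the first set too. From 8 to 24 h the change was −1.64 ± 0.65 in the labelled knock-out (adjusted p = 0.0573) and −1.54 ± 0.56 in wild-type (adjusted p = 0.0324). With the set term that step passed in both, at −1.38 in the labelled knock-out (adjusted p = 3.44e-05) and −1.48 in wild-type (adjusted p = 2.02e-06). The wild-type call was lost without library 7, 8, 11 or 12. Over all times, summed macrophage markers were 14881 to 28165 CPM in the second set and 19620 to 28884 CPM in the first set of the labelled knock-out, and 13774 to 16607 CPM in the second set and 15970 to 26831 CPM in the first set of wild-type. Within every group the second-set library had the lowest sum. In the labelled knock-out it held 14881 CPM against 21387 and 21982 CPM at 0 h, and 28165 CPM against 28884 CPM at 24 h. The part of cell make-up in the set difference was not tested, and in bulk RNA fewer cells of a type and less RNA per cell cannot be told apart.

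**Figure D3:**
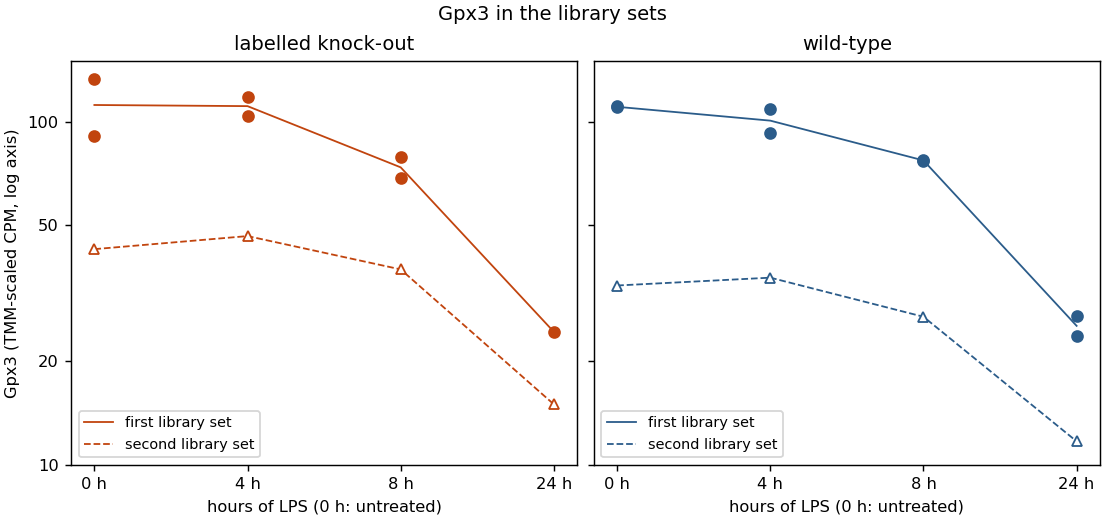
Gpx3 level (TMM-scaled CPM, log axis) against hours of LPS in labelled knock-out (left) and wild-type (right) libraries, with the first library set as filled circles and its mean as a solid line, and the second set as open triangles with a dashed line. The second set lies below the first at every time, and both sets are lowest at 24 h.

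The members of the endoplasmic reticulum were at the edge of detection. Gpx7, at chr4:108400390-108406961 on the minus strand, had 160 fragments over all 23 libraries, with 0.0223 to 0.503 CPM in a library. In labelled knock-out cells its counts were 6, 10 and 8 untreated, 4, 6 and 1 at 4 h, 5, 14 and 3 at 8 h, and 3 and 2 at 24 h. In wild-type cells they were 8, 5 and 23 untreated, 1, 8 and 19 at 4 h, 6, 8 and 12 at 8 h, and 2, 1 and 5 at 24 h. The highest count of each wild-type group was in the second set. The same held for the labelled knock-out at 0, 4 and 8 h, but not at 24 h. At 24 h the change from untreated cells was −1.36 ± 1.0 on the log2 scale in the labelled knock-out (adjusted p = 0.285) and −1.79 ± 0.82 in wild-type (adjusted p = 0.0724). From 8 to 24 h it was −1.75 ± 1.0 in the labelled knock-out (adjusted p = 0.186) and −1.96 ± 0.85 in wild-type (adjusted p = 0.0673). None of these passed. With the set term the 24 h value in wild-type, −1.74, did (adjusted p = 0.0161), as did the step from 8 to 24 h, at −1.85 in the labelled knock-out (adjusted p = 0.0468) and −2.01 in wild-type (adjusted p = 0.0102). Leaving out 1 library moved the wild-type 24 h value between −2.62 (without library 12) and −0.91 (without library 3), and it passed without library 2, 4 or 12.

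Gpx8, at chr13:113042753-113046410 on the minus strand, had 22 fragments in all. Labelled knock-out libraries 14, 17, 20 and 23, those of the second set, held 6, 3, 7 and 1 of them, and the other 7 labelled knock-out libraries held 1. Wild-type libraries held 4, all in the first set. A count of 0 in a library allows up to 3 fragments, or 0.0769 CPM by the smallest library total before TMM scaling, counting error only. The summed stromal markers (12 genes, collagens and others) were also highest of their time in those 4 libraries, at 38.2, 126, 128 and 51.9 CPM at 0, 4, 8 and 24 h. The other libraries of the same times held 3.95 to 8.78 CPM, 32.0 to 46.6 CPM, 13.5 to 23.8 CPM and 8.66 to 16.2 CPM. All 12 stromal markers had counts in those 4 libraries. The same held in the labelled knock-out libraries 15, 16, 19, 21 and 22 and the wild-type libraries 4, 7, 8, 9, 11 and 12. The part of stromal cells in the Gpx8 fragments was not tested.

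The make-up of the family's mRNA differed between times, since Gpx1 was lowest at 8 h and Gpx3 at 24 h. Gpx1 held 75.8 ± 4.92% of the members' summed RPKM in untreated labelled knock-out cells and 78.5 ± 5.10% in untreated wild-type cells. At 8 h its share was 67.1 ± 6.16% in the labelled knock-out and 65.6 ± 6.79% in wild-type, and at 24 h it was 81.4 ± 3.01% (n = 2) in the labelled knock-out and 80.5 ± 0.440% in wild-type (SD, n = 3 where not stated). Gpx3 held 15.9 ± 5.05% at 8 h in the labelled knock-out and 17.3 ± 6.96% in wild-type, and 2.99 ± 1.12% (n = 2) at 24 h in the labelled knock-out and 3.25 ± 1.02% in wild-type. Shares are per exonic length and were given no test.

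**Figure D4:**
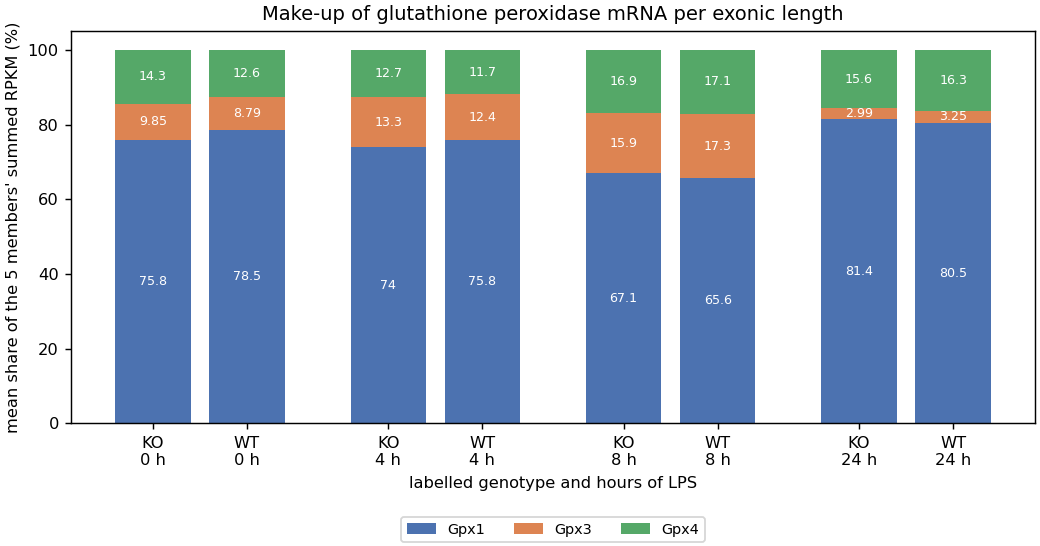
Mean share of the 5 members' summed RPKM (y axis, percent) held by Gpx1, Gpx3 and Gpx4 in each labelled genotype and time (x axis), with labelled knock-out left of wild-type. Gpx7 and Gpx8 are too low to be seen. The Gpx1 share is lowest at 8 h, and the Gpx3 share is about 3% at 24 h in both genotypes.

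Among the 4 members tested, 2 were called lower (adjusted p under 0.05) at 4 h of LPS in the labelled knock-out, where 34.1% of all genes tested were called lower, and 2 in wild-type, where 34.8% were. At 8 h it was again 2 in the labelled knock-out (31.9% of all genes) and 2 in wild-type (35.1%). At 24 h it was 1 in the labelled knock-out (20.8%) and 2 in wild-type (27.3%). From 4 to 8 h, 2 were lower in the labelled knock-out (22.8%) and 2 in wild-type (22.8%). From 8 to 24 h, 2 were higher in the labelled knock-out (17.9%), and in wild-type 2 were higher (23.1%) and 1 lower (21.9%). The median log2 fold change of the 4 members at 8 h was −0.74 in the labelled knock-out and −0.77 in wild-type, against −0.09 in the labelled knock-out and −0.10 in wild-type over all genes tested. With 4 members, these counts and medians describe the family and were not tested.

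Between genotypes no member was called. None of the 4 tested passed at 0 h (1.52% of all genes were), 4 h (1.24%), 8 h (2.20%) or 24 h (1.19%), nor in the average over times (6.27%). No raw p in these comparisons was under 0.05 either. Averaged over times, the labelled knock-out stood at 0.06 (95% interval −0.06 to 0.18) against wild-type for Gpx1, at 0.12 (−0.01 to 0.26) for Gpx4, at 0.05 (−0.54 to 0.64) for Gpx3 and at −0.58 (−1.49 to 0.33) for Gpx7, on the log2 scale. The Gpx1 and Gpx4 intervals are narrow. The Gpx3 interval is wide in both directions, and that of Gpx7 reaches further down than up. With the set term the Gpx3 average was 0.16 (adjusted p = 0.277), and the first set alone gave 0.01. For Gpx4 the adjusted p of the average was 0.309, and the first library set alone gave 0.14 (adjusted p = 0.0397). Without libraries 13, 16, 19 and 22, the labelled knock-out libraries with Selenow near wild-type, no member was called between genotypes.

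The libraries of the genotypes did not overlap in a few instances. At 8 h all 3 labelled knock-out libraries held more Gpx1 (185 to 223 CPM) than all 3 wild-type libraries (170 to 181 CPM), as did 11.3% of genes. The difference was 0.22 ± 0.11 (95% interval −0.02 to 0.45, adjusted p = 0.412). At 4 h the same held for Gpx4, at 78.9 to 83.4 CPM in the labelled knock-out and 63.8 to 74.4 CPM in wild-type, as for 6.98% of genes. That difference was 0.23 ± 0.12 (95% interval −0.03 to 0.48, adjusted p = 0.790). Gpx2, Gpx5 and Gpx6 could not be compared at these counts.

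The LPS response of the members was not called different between genotypes. The interaction called 0.0442% of all genes at 4 h, 0.0442% at 8 h and 0% at 24 h, the joint test called 0.111%, and none of these was a member. Gpx1 had the smallest raw p, 0.0377, at 8 h: its fall was smaller in the labelled knock-out by 0.36 ± 0.16 (95% interval 0.02 to 0.69, adjusted p = 0.401). For Gpx4 the interaction at 8 h was 0.09 ± 0.17 (adjusted p = 0.905) and for Gpx3 it was −0.04 ± 0.77 (adjusted p = 0.997). The joint test gave adjusted p = 0.782 for Gpx1 and 0.961 for Gpx4.

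**Figure D5:**
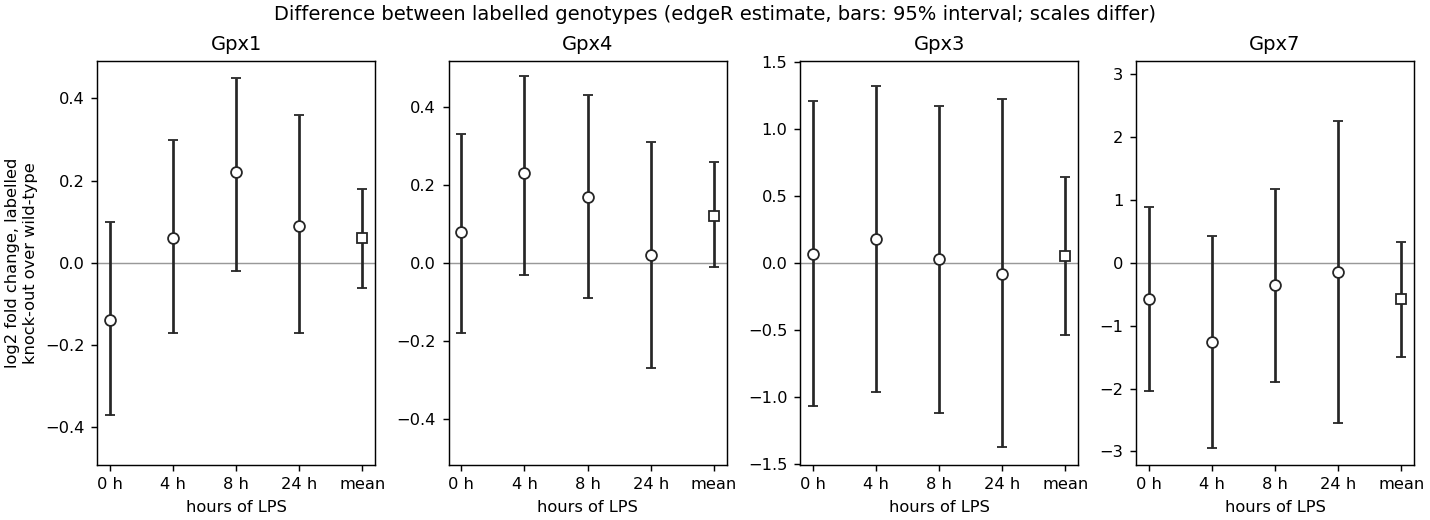
Log2 fold change of labelled knock-out over wild-type (y axis, scale differs by panel) at each time and averaged over times (x axis), with 95% intervals, for Gpx1, Gpx4, Gpx3 and Gpx7. The Gpx1 average is 0.06 and the Gpx4 average 0.12, and every interval shown includes 0.

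Over the 23 libraries, Gpx1 and Gpx4 varied together (Pearson's r of log2 CPM 0.88), while the other pairs of members ranged from −0.31 to 0.04. These correlations describe libraries that share groups and library sets. Among genes with a mean of at least 5 CPM, those closest to Gpx1 in pattern were Abcb4 (r = 0.984), Sh3glb2 (0.976) and Urod (0.965), out of 9309 searched. Closest to Gpx4 were its copy Gpx4-ps2 (0.986), Peg13 (0.966) and Zfhx3 (0.964). Closest to Gpx3 were Selenop (0.965), which encodes the secreted selenium carrier of plasma, Ccdc152 (0.964) and Trf (0.953), which encodes transferrin. Ccdc152 shares 439 exonic bases with Selenop on the opposite strand, 32.3% of its length, and counting ignored strand, so its pattern and that of Selenop cannot be told apart. Gpx7 had weaker neighbours, among them Gfm2 (0.771) and Acsf3 (0.716).

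Other genes of glutathione metabolism moved in both directions at 8 h of LPS. Of 8 tested genes of glutathione synthesis and cystine supply, 4 rose and 1 fell in each genotype, with a median log2 fold change of 0.44 in the labelled knock-out and 0.98 in wild-type. Slc7a11, the cystine importer, rose by 5.55 ± 0.49 in the labelled knock-out (adjusted p = 2.05e-08) and 5.74 ± 0.49 in wild-type (adjusted p = 1.25e-08). Its mean was 331 CPM at 8 h against 7.05 CPM untreated in the labelled knock-out, and 397 CPM at 8 h against 7.43 CPM untreated in wild-type. Its partner chain Slc3a2 rose by 2.59 in the labelled knock-out and 2.48 in wild-type. Of 12 genes of glutathione reduction and NADPH supply, 3 rose and 7 fell in the labelled knock-out, and 5 rose and 7 fell in wild-type. Their median was −0.74 in the labelled knock-out and −1.03 in wild-type. The falls included Idh1 (−2.63 in the labelled knock-out, −2.32 in wild-type) and Mthfd1 (−2.56 in the labelled knock-out, −3.45 in wild-type), enzymes that yield NADPH in the cytosol.

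Enzymes with neighbouring tasks moved in both directions. Of 7 other peroxide-removing enzymes, 4 rose and 1 fell at 8 h in the labelled knock-out (median 0.72), and 4 rose and 2 fell in wild-type (median 0.49). Prdx5, a peroxiredoxin, rose by 3.41 ± 0.20 in the labelled knock-out (adjusted p = 2.12e-10) and 3.22 ± 0.20 in wild-type (adjusted p = 3.11e-10), while catalase (Cat) fell by 1.32 in the labelled knock-out and by 0.76 in wild-type. Of 4 glutaredoxins, 1 rose and 3 fell in the labelled knock-out (median −0.51), and 1 rose and 2 fell in wild-type (median −0.40). At 8 h Glrx rose by 4.19 in the labelled knock-out and 3.53 in wild-type. Glrx5 fell by 0.98 in the labelled knock-out and by 1.38 in wild-type at that time. From 8 to 24 h, 3 of the 4 glutaredoxins rose in each genotype. Of 15 genes of lipid peroxidation and ferroptosis, 6 rose and 7 fell at 8 h in each genotype. Their median was −0.28 in the labelled knock-out and −0.57 in wild-type. Alox5, a lipoxygenase, fell by 3.45 in the labelled knock-out and by 3.73 in wild-type, and Hmox1, haem oxygenase, rose by 3.02 in the labelled knock-out and 3.60 in wild-type.

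Selenoproteins and their synthesis were also mixed. Of 16 other selenoprotein genes, 5 rose and 6 fell at 8 h in the labelled knock-out (median −0.28), and 6 rose and 7 fell in wild-type (median −0.10). Txnrd1, the cytosolic thioredoxin reductase, rose by 1.48 in the labelled knock-out and 1.91 in wild-type, while Txnrd3 changed by −2.69 in the labelled knock-out and −2.68 in wild-type. Selenow itself was called higher at 8 h, by 1.48 ± 0.37 in the labelled knock-out (adjusted p = 0.00209) and 1.39 ± 0.37 in wild-type (adjusted p = 0.00300), at the time when Gpx1 and Gpx4 were lowest. Of 10 genes of selenocysteine synthesis and insertion, 1 rose and 4 fell in the labelled knock-out and 1 rose and 6 fell in wild-type, with a median of −0.44 in each. The enzyme that forms selenocysteine on its tRNA, Sepsecs, fell by 1.02 in the labelled knock-out and by 1.17 in wild-type. Over all genes tested, 28.3% rose and 31.9% fell in the labelled knock-out at 8 h, and 30.3% rose and 35.1% fell in wild-type. At 24 h, 22.6% rose and 20.8% fell in the labelled knock-out, and 27.8% rose and 27.3% fell in wild-type.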

How the data were processed

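RNA-seq libraries of bone marrow-derived macrophages were compared by labelled genotype and hours of LPS. The authors deposited 1 table of raw counts, whose unit is the read pair. Per the submitters' processing notes, HISAT2 (version not given in the sources used here) made the alignments. Per the file headers, featureCounts 2.0.1 then counted pairs on exons of Ensembl release 101 (GRCm38), ignored strand, let a pair count for every gene it overlapped, and dropped multiply aligned reads. Symbols came from GENCODE mouse release 21, which named 55141 of 55401 identifiers.

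All 23 libraries entered 1 fit of 8 group means in edgeR 4.0.16 (R 4.3.3), with TMM scaling, filterByExpr on the groups and the quasi-likelihood F-test, two-sided. P-values were adjusted by the Benjamini-Hochberg method over 18083 genes, and those under 0.05 were called. The standard error was taken as |log2 fold change| over the root of F. RPKM is TMM-scaled CPM per kilobase of the deposited exonic length. Coding windows were read from GENCODE transcripts. The code was tested on simulated data with 200 changed genes.

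The members and gene lists were chosen with earlier results of these data known. Genes named were the members, Selenow, the other Gpx genes, the 3 genes closest in pattern to each member and up to 4 called genes of a list with the largest change. Some genes within that rule, such as Ggt5, are not named, and 1 gene close in pattern to Gpx7 is not reported here. Alternatives were DESeq2 1.42.0, limma-voom (limma 3.58.1), RLE and upper-quartile scaling, a filter of 1 CPM in 3 libraries or no filter, a threshold of 0.01 for adjusted p, a test of changes over 1.5-fold, fits limited to the compared groups, the library set as a term, the first set by itself, and fits without libraries 13, 16, 19 and 22 or without any 1 library. Summing Gpx4 with Gpx4-ps2 was added after seeing the data.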

Additional observations from a re-analysis of the deposited data

How the results depend on the processing

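The falls of Gpx1 and Gpx4 at 8 h of LPS and of Gpx3 at 24 h in wild-type kept their call and direction under every alternative run. No paired analysis was possible because the labels give no pairs. Each of the numbers 1 to 23 belongs to a single library and so to a single group. The library set, which comes from the data, was fitted as a term instead. Whether libraries of different times share a source is not given, and the main fit treated them as independent. Gpx7 could not be tested with at least 1 CPM in 3 libraries, the fold test was not made for the joint interaction, and a fit of only the groups compared was not made for the average or the joint test.

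The number of members called depended on the setting in some comparisons. Against a fold of 1.5 it was 0 at 4 h in each genotype, and 1 in wild-type at 24 h, and 1 in each genotype from 4 to 8 h and from 8 to 24 h. From 4 to 8 h in wild-type it was also 1 at an adjusted p under 0.01, with no filter, with only the groups compared and without libraries 13, 16, 19 and 22, and in the labelled knock-out it was 1 at an adjusted p under 0.01. At 24 h in the labelled knock-out it was 0 at an adjusted p under 0.01 and without libraries 13, 16, 19 and 22, 2 with RLE scaling, the 1 CPM filter, DESeq2, limma-voom and the first set, and 3 with upper-quartile scaling. It was 4 from 8 to 24 h in the labelled knock-out with the set term, and 1 for the genotype average in the first set. Leaving out 1 library gave 1 to 2 members from 4 to 8 h in each genotype, 0 to 2 at 24 h in the labelled knock-out and 2 to 3 in wild-type, and from 8 to 24 h 2 to 3 in the labelled knock-out and 2 to 4 in wild-type. With the set term the number was also 4 from 8 to 24 h in wild-type, and 3 at 8 h in each genotype. Causes of these shifts were not tested.

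Values that changed sign were never called. They were, for Gpx7 with limma-voom, −0.06 in wild-type at 4 h, 0.49 in wild-type from 4 to 8 h, 0.09 between genotypes at 24 h and −0.27 for the interaction at 8 h, and with the set term 0.07 in wild-type from 4 to 8 h. For Gpx3 in the labelled knock-out at 4 h they were −0.07 with upper-quartile scaling, 0.00 with the 1 CPM filter and −0.09 without libraries 13, 16, 19 and 22. Between genotypes, Gpx3 gave −0.06 at 8 h and −0.10 on average without those 4 libraries, −0.07 at 8 h in the first set, and 0.20 at 24 h with the set term, where its interaction gave 0.08. Gpx1 gave −0.07 at 24 h in the first set, and Gpx4 gave −0.07 at 24 h without the 4 libraries and 0.06 for the interaction at 24 h in the first set.

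Leaving out 1 library at a time also turned signs of uncalled values. The ranges for LPS were −0.49 to 0.25 (Gpx3, wild-type 4 h), −0.33 to 0.42 (Gpx3, labelled knock-out 4 h), −0.74 to 1.09, −0.21 to 1.05 and −0.55 to 0.91 (Gpx7, wild-type 4 h, 8 h and 4 to 8 h) and −0.47 to 0.74 (Gpx7, labelled knock-out 8 h). Between genotypes Gpx1 ran from −0.02 to 0.14 at 4 h, Gpx4 from −0.04 to 0.18 at 0 h and −0.07 to 0.11 at 24 h. Gpx3 ran from −0.35 to 0.40 at 0 h, −0.17 to 0.49 at 4 h, −0.33 to 0.29 at 8 h, −0.48 to 0.23 at 24 h and −0.05 to 0.13 on average. Gpx7 ran from −0.94 to 0.31 at 0 h, −1.21 to 0.01 at 8 h and −0.55 to 0.68 at 24 h. Interactions at 4, 8 and 24 h ran from −0.24 to 0.53, −0.40 to 0.37 and −0.54 to 0.27 for Gpx3, and from −1.57 to 0.26, −0.66 to 0.59 and −0.45 to 1.24 for Gpx7. For Gpx4 they ran from −0.01 to 0.21 at 8 h and −0.16 to 0.06 at 24 h.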

Other observations

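At 24 h of LPS, further genes of selenium transport, glutathione recycling and protein oxidation had changed. Selenop, whose pattern was closest to that of Gpx3, fell by 3.44 ± 0.93 on the log2 scale in the labelled knock-out (adjusted p = 0.00595, edgeR's quasi-likelihood test) and by 3.56 ± 0.79 in wild-type (adjusted p = 0.000918). Gsr, glutathione reductase, was higher by 1.01 ± 0.22 in the labelled knock-out (adjusted p = 0.000997) and 1.23 ± 0.20 in wild-type (adjusted p = 4.15e-05). Of 9 genes of disulphide formation in the endoplasmic reticulum, where Gpx7 and Gpx8 reside, 6 rose and 1 fell at 24 h in the labelled knock-out, and 5 rose and 1 fell in wild-type. The list's median log2 fold change was 0.76 in the labelled knock-out and 0.44 in wild-type, against 0.00 over all genes in both. Ero1l, the oxidase that feeds peroxide into that compartment, rose by 2.04 ± 0.49 in the labelled knock-out (adjusted p = 0.00233) and 2.89 ± 0.47 in wild-type (adjusted p = 4.25e-05), while Gpx7 had 5 fragments over 2 labelled knock-out libraries and 8 over 3 wild-type libraries.

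Between genotypes, 2 of 18 genes of glutathione transfer, export and breakdown were called in the average over times. Over all genes tested, 6.27% were called in it. The count was 1 of 12 for glutathione reduction and NADPH supply and 1 of 15 for lipid peroxidation and ferroptosis. It was 1 of 7 for other peroxide-removing enzymes and 2 of 16 for other selenoproteins. These counts were not tested against that share. Ggct, which breaks down gamma-glutamyl dipeptides, was higher in the labelled knock-out by 1.60 ± 0.22 on the log2 scale (adjusted p = 8.73e-05). Its mean in labelled knock-out cells was 0.917, 9.59, 6.64 and 8.86 CPM at 0, 4, 8 and 24 h, against 0.430, 2.36, 2.71 and 2.20 CPM in wild-type cells. Gsto1 was higher by 0.27 ± 0.07 (adjusted p = 0.0326), Alox5 by 0.79 ± 0.20 (adjusted p = 0.0219), Idh1 by 0.50 ± 0.12 (adjusted p = 0.0166) and Prdx5 by 0.33 ± 0.09 (adjusted p = 0.0434). Among selenoprotein genes Selenoi was lower by −0.37 ± 0.08 (adjusted p = 0.00431) and Dio2 by −0.76 ± 0.22 (adjusted p = 0.0434). Each of these lists had no other gene called between genotypes in that average. Selenow, the targeted gene, was not counted among the 16 other selenoproteins. No single time gave a call for Selenow between genotypes, and its smallest adjusted p was 0.270, in untreated cells. In the average over times Selenow was called lower in the labelled knock-out, by −0.70 ± 0.19 (adjusted p = 0.0306). Some markers of other cells were higher in the labelled knock-out in the same average, 7 of 12 stromal and 5 of 11 tested neutrophil markers. Of 5 tested B cell markers 0 were called (median log2 fold change 0.32), and of 7 tested dendritic cell markers 0 (median −0.13). Stromal markers summed to 38.2 to 128 CPM in the second set and 5.49 to 46.6 CPM in the first set of the labelled knock-out. In wild-type they summed to 4.45 to 32.0 CPM in the second set and 3.95 to 44.3 CPM in the first set. Neutrophil markers at 0 h summed to 198 to 207 CPM in the labelled knock-out and 117 to 138 CPM in wild-type. At 4 h they summed to 311 to 352 CPM in the labelled knock-out and 188 to 311 CPM in wild-type. The neutrophil ranges of the genotypes overlapped at 8 and 24 h, and Lcn2 held most of the 8 h sum. Of the 11 neutrophil markers, 3 were called higher and 0 lower in the labelled knock-out at each of 0, 4, 8 and 24 h. Over all genes tested, 1.52%, 1.24%, 2.20% and 1.19% were called at these times. The median log2 fold change of the neutrophil markers was 0.78 at 8 h and 0.76 at 24 h. The part of such cells in the genotype differences above was not tested.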
